A study of Mus musculus with 9 samples.

Results

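The comparison described here is between splenic T cells held for 4 h in medium that adipocytes had conditioned and cells of the same mice held in unconditioned medium. It takes in the 3 adipocyte medium samples and the 3 unconditioned medium samples, 6 of the 9 samples in the series, and all 2889 genes of the deposited sample table. Per the labels, the cells were CD3+ T cells purified by negative selection from the spleens of 3 wild-type C57BL/6 mice. One share of each mouse's cells went into unconditioned RPMI, one into adipocyte conditioned medium and one into stromal conditioned medium, all at 37 °C in 5% CO2. The labels do not say which adipocytes or stromal cells conditioned the media. Such cells are a polyclonal mixture of CD4 and CD8 T cells, and no receptor stimulus is named in the labels. The samples of each medium are separate mice, and each mouse gives 1 sample per medium, so the mouse was a block in the fit.

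T cells that meet antigen pass through a fixed order of transcription. Immediate early transcription factors of the FOS, JUN, EGR and NR4A families come first, together with phosphatases and ubiquitin editors that damp the signal. Cytokine, chemokine and costimulatory genes follow, many of them read out through NF-kB, AP-1 and NFAT sites and kept short-lived by AU-rich elements, repeats of the pentamer ATTTA in the 3'UTR that RNA-binding proteins use to destroy the message. Fatty acids and sterols in the surroundings of a cell are sensed through other routes, among them the PPAR targets Plin2, Hilpda and Cpt1a, the SREBP targets Sqle and Hmgcs1, and the LXR targets Abca1 and Abcg1. Cells short of amino acids or with misfolded protein raise ATF4 and heat shock genes.

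Some genes that rose carry such elements in full, with log2 fold changes between the media from 1.81 in Maff to 6.36 in Cxcl2. They were chosen after their values were seen, as examples of the letters that are counted over all promoters and 3'UTRs further on. The first set gives the 120 bases before the RefSeq transcription start (GRCm38.p6) of 6 genes that rose in adipocyte medium. Capitals mark a perfect kB site (GGGA, any base, then TTTCC) in the neutrophil chemokine genes Cxcl2 and Cxcl3. In the other genes capitals mark a perfect cAMP response element (TGACGTCA, the site of CREB and ATF factors). These are the EGF receptor ligand Areg, the MAP kinase phosphatase Dusp8, the small MAF factor Maff and the histone gene H4c8.
Cxcl2, chr5:90903779-90903898, plus strand: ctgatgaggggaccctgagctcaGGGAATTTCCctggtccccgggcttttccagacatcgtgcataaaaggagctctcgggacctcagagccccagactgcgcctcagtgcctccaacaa
Cxcl3, chr5:90785981-90786100, plus strand: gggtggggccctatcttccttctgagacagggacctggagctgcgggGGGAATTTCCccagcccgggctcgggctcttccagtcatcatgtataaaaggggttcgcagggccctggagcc
Areg, chr5:91139479-91139598, plus strand: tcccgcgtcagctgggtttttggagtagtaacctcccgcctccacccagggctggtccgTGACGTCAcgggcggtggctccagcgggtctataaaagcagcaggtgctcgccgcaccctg
Dusp8, chr7:142095285-142095404, minus strand: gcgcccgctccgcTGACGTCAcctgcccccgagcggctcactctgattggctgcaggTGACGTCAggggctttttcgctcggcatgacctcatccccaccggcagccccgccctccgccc
Maff, chr15:79347400-79347519, plus strand: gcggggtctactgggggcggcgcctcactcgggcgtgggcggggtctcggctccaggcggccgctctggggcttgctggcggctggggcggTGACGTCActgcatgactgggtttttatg
H4c8, chr13:23530924-23531043, plus strand: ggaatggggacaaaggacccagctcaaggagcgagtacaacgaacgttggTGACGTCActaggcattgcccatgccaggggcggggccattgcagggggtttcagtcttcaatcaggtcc
The kB site began 97 bases before the start in Cxcl2 and 73 bases before it in Cxcl3. The element began 61 bases before the start in Areg, 29 in Maff and 70 in H4c8, and Dusp8 held 2 copies, at 107 and 63 bases.

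The second set gives 30-base stretches of the 3'UTR of the GENCODE M21 transcript (GRCm38) in the growth factor gene Csf2, in Il2 and in Cxcl2, with each ATTTA in capitals. Copies of the pentamer can share their end bases.
Csf2, chr11:54247329-54247358, minus strand: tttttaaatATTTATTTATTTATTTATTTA
Il2, chr3:37121040-37121069, minus strand: ctATTTATTTAaatATTTAactttaATTTA
Cxcl2, chr5:90905327-90905356, plus strand: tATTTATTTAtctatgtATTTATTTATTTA
The stretches hold 5, 4 and 5 pentamers. The whole 3'UTRs hold 9 pentamers in 317 bases in Csf2, 7 in 581 bases in Il2 and 11 in 1494 bases in Cxcl2.

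Values below are normalized counts, the reads of a gene divided by 1 size factor per library, and are given for mice 1, 2 and 3 in that order. They compare 1 gene between samples, not the levels of different genes. Fold changes are log2 differences of the value plus 1, adipocyte medium minus unconditioned medium within mice, with the standard error (SE) and the adjusted p of limma. The libraries held 6522742 to 11936703 reads on the listed genes in the 6 samples. Each gene of the table is also in the authors' own lists of genes changed in adipocyte or stromal medium, 2396 in the adipocyte list only, 245 in both and 248 in the stromal list only. Counts of changed genes therefore describe a selected table and do not measure how broad the response was. Of the 2889 genes, 2874 passed the filter on low values. At an adjusted p of 0.05, 967 rose (33.6%) and 1821 fell (63.4%) in adipocyte medium, and the 86 others were all genes of the stromal list only. With at least a 4-fold change, 205 rose (7.13%) and 335 fell (11.7%). The median log2 fold change over the tested genes was -1.03. A gene group near these shares and this median moved as the table as a whole did.

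The split between rises and falls depends on the scale. The top 100 listed genes by level held 42.1% to 44.1% of the normalized counts of all listed genes in the adipocyte samples, against 35.1% to 35.3% in the unconditioned ones. Rescaling each library by the median ratio over the listed genes adds a median of 0.93 to the log2 fold changes, less for genes with low values, where the pseudocount of 1 weighs more. Then 1084 genes rose and 1048 fell. Of the 1821 genes that fell on the authors' scale, 723 were no longer past the threshold and 50 were higher. That rescaling sets the typical listed gene near no change by construction, and the authors' scale was kept for the values below. Every shift was upward, so a rise remained a rise by construction and the rescaling bears on falls and on genes near no change. Counts on the rescaled libraries are given beside the gene groups that held such genes.

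**Figure D1:**
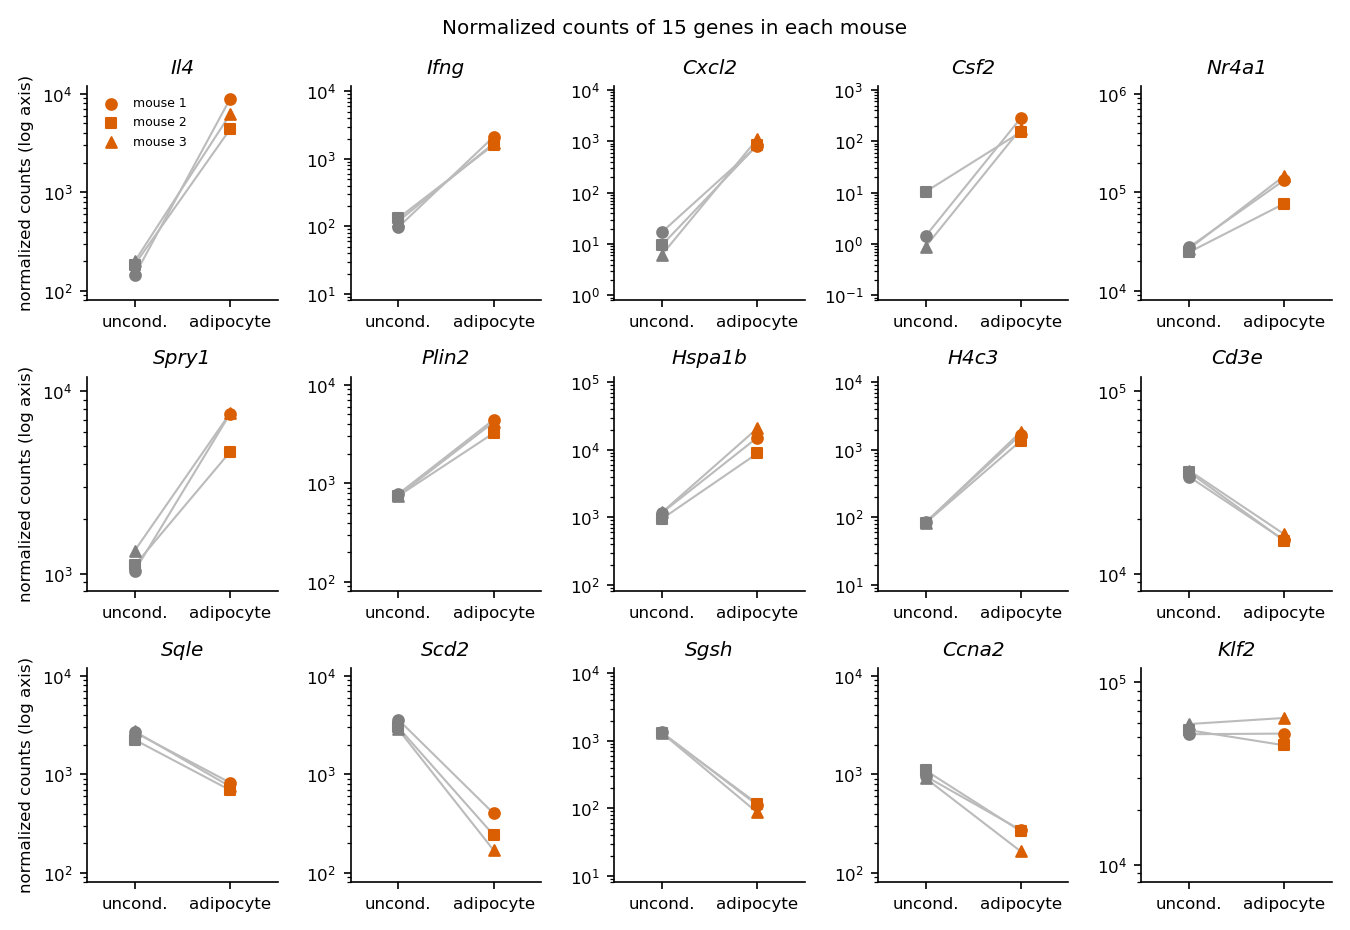
Normalized counts (log axis) of 15 genes in the 3 unconditioned and 3 adipocyte medium samples, 1 panel per gene, with a line joining the samples of each mouse. Il4, Ifng, Cxcl2, Csf2, Nr4a1, Spry1, Plin2, Hspa1b and H4c3 lie higher in adipocyte medium in every mouse, Cd3e, Sqle, Scd2, Sgsh and Ccna2 lie lower, and the groups overlap in Klf2.

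Secreted T cell cytokines rose together. Of 32 cytokine genes on the list 17 were in the table, of which 16 rose and 1 fell, with a median log2 fold change of 3.58 against -1.03 over all tested genes. The median is also 3.58 with the 3 genes that had no reads in unconditioned medium set at their floor. These cytokines mark several helper programmes. Il4 (ENSMUSG00000000869), the defining type 2 helper cytokine, had 144, 185 and 199 normalized counts in unconditioned medium and 8856, 4358 and 6172 in adipocyte medium. The groups were far apart, mouse 2 had the lowest adipocyte value, and the log2 fold change was 5.14 with an SE of 0.27 and a limma adjusted p of 6.31e-08. Il5, which drives eosinophil growth, went from 18.6, 19.1 and 19.5 to 789.6, 421 and 336, a log2 fold change of 4.59. Il13 had no reads in unconditioned medium and 25.9, 6.3 and 4.88 in adipocyte medium, which is at least 3.88-fold higher against a floor of 3 reads per library.

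Ifng, the type 1 helper and CD8 T cell cytokine, had 97.1, 132 and 119 in unconditioned medium and 2119.9, 1609 and 1698 in adipocyte medium (log2 fold change 3.95 with an SE of 0.16 and a limma adjusted p of 2.43e-08). The adipocyte values lay within a narrow band, far above the unconditioned ones. The interleukin 17 family member Il17a had no reads in any unconditioned library and 90.6, 28.8 and 102 in adipocyte medium, at least 23.1-fold higher, with the lowest value in mouse 2. Il22, made by type 17 and type 22 helper cells, went from 2.86, 3.48 and 0.886 to 84.9, 79.2 and 67.4. Il21, the cytokine of follicular helper cells, went from 101, 111 and 70.9 to 4627, 1685 and 3229 (log2 fold change 4.97).

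The T cell growth factor Il2 had 109, 119.9 and 153 in unconditioned medium and 2344, 966 and 1553 in adipocyte medium, a log2 fold change of 3.58 with an SE of 0.26 and a limma adjusted p of 2.71e-07. Csf2, the myeloid growth factor GM-CSF whose AU-rich stretch is printed above, had 1.43, 10.4 and 0.886 in unconditioned medium, which is 14 reads in all, and 285, 152 and 177 in adipocyte medium. Its groups did not overlap. Il3, another myeloid growth factor, had no reads in unconditioned medium and 11.5, 12.6 and 7.82 in adipocyte medium, at least 3.34-fold higher. Il10, which dampens inflammation, rose by 2.32 on the log2 scale, Lif by 2.26, Areg by 2.72 and Tnf by 1.36. The exception was Il16, a chemoattractant that resting T cells store as a precursor. It went from 24711, 23250.2 and 23977 to 12174, 13257 and 12774, a log2 fold change of -0.91 with an SE of 0.083 and a limma adjusted p of 1.02e-06, and stood at 0.013 on the rescaled libraries, where it was not past the threshold.

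Chemokine ligands did not move one way. Of 9 in the table, from a list of 23, 6 rose, 2 fell and 1 missed the threshold, at a median of 1.54 (7 rose and 2 fell after rescaling). The CXCR2 ligand Cxcl2 (ENSMUSG00000058427) had 17.1, 9.56 and 6.21 in unconditioned medium and 817, 846 and 1109 in adipocyte medium. Every adipocyte sample was far above every unconditioned sample, with a log2 fold change of 6.36 with an SE of 0.32 and a limma adjusted p of 5.06e-08. Cxcl3, which shares the kB site shown above, went from 14.3, 1.74 and 16 to 358, 258 and 159. The macrophage inflammatory protein genes Ccl3 and Ccl4 rose by 4.45 and 3.18 on the log2 scale, each with its lowest adipocyte value in mouse 2. Cxcl10, an interferon-induced ligand of CXCR3, had 263, 278 and 226 in unconditioned medium, 955, 792 and 528 in adipocyte medium and 2351, 838 and 1371 in stromal medium. The 2 genes that fell, Ccl22 and Ccl6, are known from dendritic cells and macrophages. Ccl22 had 106, 122 and 119 in unconditioned medium and 3 reads in all in the adipocyte libraries. Ccl6 went from 184, 279 and 390.0 to 18.7, 71.1 and 61.6, beside the falls of myeloid markers given further on, and the part of those cells in these values was not tested.

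Ligands and receptors of the TNF superfamily split, with 8 of 14 higher and 6 lower (8 and 2 after rescaling). Tnfsf14, the ligand LIGHT, had 81.4, 79.1 and 72.7 in unconditioned medium and 748, 339 and 563 in adipocyte medium. Tnfsf11, the osteoclast factor RANKL, rose by 2.13 on the log2 scale. Cd40lg, through which helper T cells license B cells, went from 3525, 3321 and 3429.7 to 13470.0, 7683 and 12502 (log2 fold change 1.67 with an SE of 0.16 and a limma adjusted p of 1.52e-06). Death receptor 3, encoded by Tnfrsf25, fell by 1.29 on the log2 scale, with 3445, 4137 and 3876 in unconditioned medium and 1516, 1834 and 1369.7 in adipocyte medium.

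Cytokine receptor chains were as mixed, with 6 of 12 higher and 6 lower (8 and 3 after rescaling). The decoy receptor Il1r2 rose by 2.25, Il12rb2, the signalling chain of the interleukin 12 receptor, by 1.32, and Il4ra, the chain that binds interleukin 4, by 1.30 on the log2 scale. Il13ra1, a chain of the type II interleukin 4 receptor that is abundant on myeloid cells, went from 137, 183 and 119 to 8.63, 10.8 and 13.7. Among 14 costimulatory and checkpoint genes 9 rose and 4 fell (10 and 1 after rescaling). Cd274, the checkpoint ligand PD-L1, had 2034, 1968 and 1939 in unconditioned medium and 10457, 9105 and 5837 in adipocyte medium. Its sister Pdcd1lg2 rose by 1.89 and the inhibitory receptor Ctla4 by 1.06. Cd96, an adhesion receptor of T and NK cells, fell by 1.28 on the log2 scale.

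**Figure D2:**
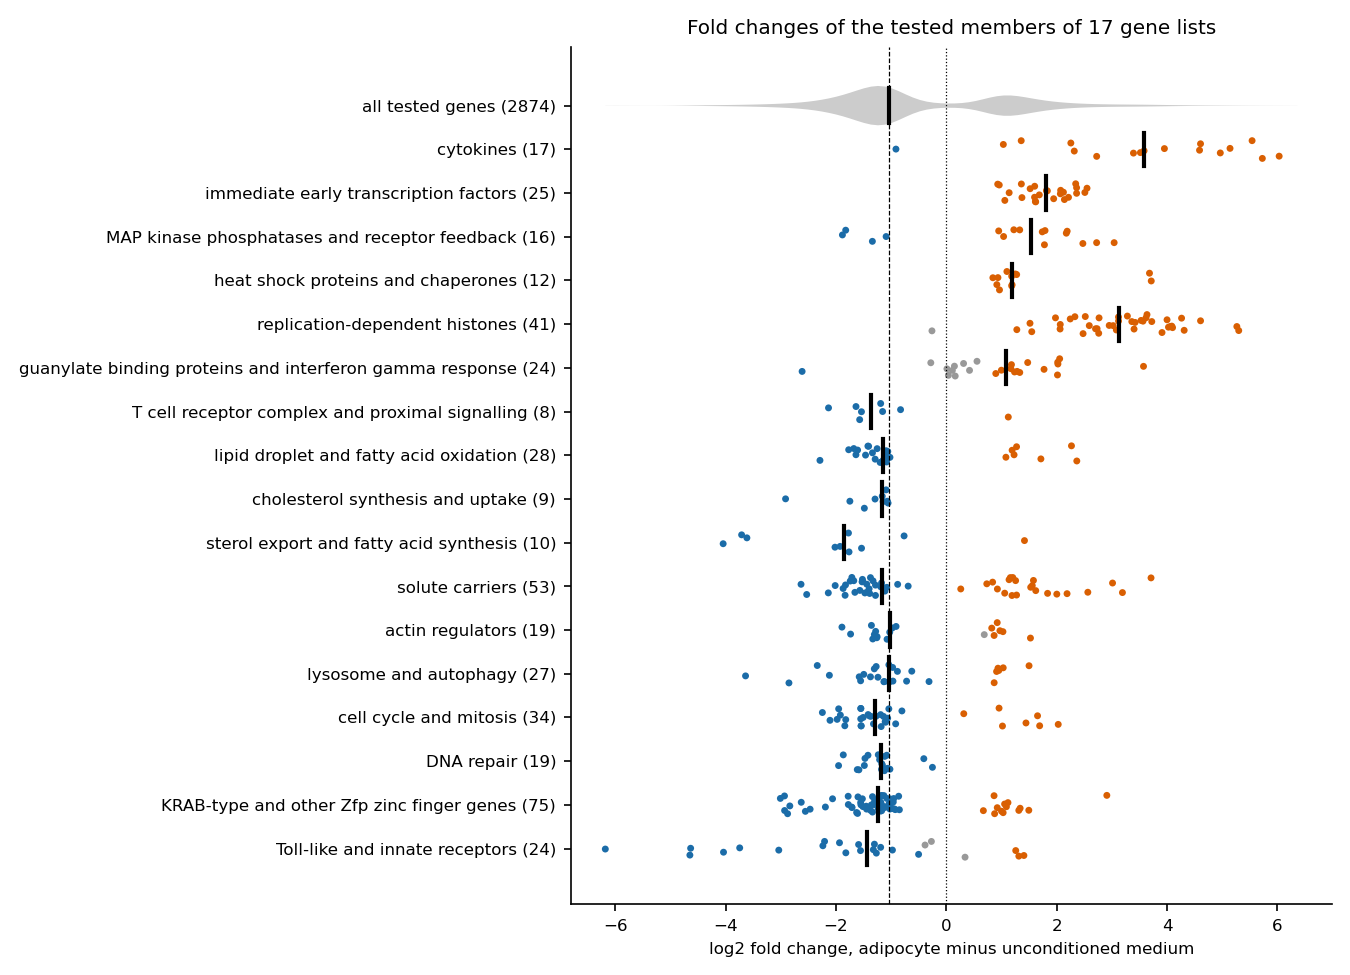
Log2 fold change, adipocyte minus unconditioned medium, of each tested member (points) of 17 gene lists, with a violin of all 2874 tested genes, a black bar at each median and a dashed line at the median of all tested genes, -1.03. Orange points rose, blue points fell and grey points were not past the threshold. The cytokine and histone lists reach furthest above 0, and the cholesterol and DNA repair lists have no point above 0.

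All 25 immediate early transcription factors in the table, from a list of 40, rose, with log2 fold changes from 0.93 to 2.55 and a median of 1.81. The nuclear receptor Nr4a1 (ENSMUSG00000023034), a reporter of T cell receptor signal strength, had 27735, 24699 and 26713 in unconditioned medium and 133265, 76974 and 147124 in adipocyte medium (log2 fold change 2.12 with an SE of 0.20 and a limma adjusted p of 1.28e-06). Its relative Nr4a3 rose by 2.51. The AP-1 subunit Jun went from 2879, 2881 and 2751 to 18757, 11827 and 20656, and Junb and Fos rose by 2.36 and 1.95. In these genes too, mouse 2 had the lowest adipocyte value. Egr2, a brake on T cell activation, rose by 1.37, the cAMP-induced repressor Crem by 2.07, the stress factor Atf3 by 2.34 and Maff by 1.81. Myc, which drives growth of activated T cells, had the smallest change of the list, 0.93 with an SE of 0.11 and a limma adjusted p of 7.33e-06.

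Feedback genes of signalling rose as well. All 8 NF-kB subunits and feedback genes in the table rose, with a median of 1.10. Tnfaip3, the ubiquitin editor A20, had 74219.5, 62013 and 57254 in unconditioned medium and 252853, 196054 and 236105 in adipocyte medium, and the subunit gene Nfkb1 rose by 1.27. Of 16 MAP kinase phosphatases and receptor feedback genes 12 rose and 4 fell, with a median of 1.53 (12 and 3 after rescaling). Spry1 (ENSMUSG00000037211), an inhibitor of RAS and MAP kinase signalling, went from 1037, 1113 and 1339 to 7529, 4656 and 7582, a log2 fold change of 2.47 with an SE of 0.19 and a limma adjusted p of 3.22e-07. Spry2 rose by 3.04, and the phosphatases Dusp8, Dusp16, Dusp5 and Dusp1 by 2.72, 2.19, 1.74 and 1.04. Rgs1, which damps chemokine receptor signalling, rose by 2.17. Members that fell include Rgs14, with 4055, 4227 and 4463 in unconditioned medium and 1153, 1323 and 1127 in adipocyte medium, and Dusp22, an inhibitor of Lck signalling, which fell by 1.34 on the log2 scale.

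All 7 genes of mRNA decay in the table rose, with a median of 0.96. Zfp36, the protein tristetraprolin that binds AU-rich elements, went from 8200.0, 7811 and 9011 to 26153, 17021 and 29005. Tob2, which recruits the deadenylase complex, rose by 1.72. Genes of the cAMP and CREB response had 10 of 13 higher and 3 lower, with a median of 1.15 (10 and 3 after rescaling). The CREB-induced kinase gene Sik1 rose by 1.76, the cAMP phosphodiesterase Pde4d by 1.41 and the GTPase Gem by 2.39. Prkacb, a catalytic subunit of protein kinase A, fell from 13259, 12594 and 12999 to 4346, 4759 and 4035. Of 8 circadian clock genes 7 rose and 1 fell (7 and 1 after rescaling). Per1 rose by 1.31 and the repressor Nr1d2 by 1.63, and the clock output factor Dbp went from 313, 423 and 410.4 to 141, 150.3 and 174. Id1, an inhibitor of E proteins induced by BMP signalling, went from 37.1, 27.8 and 36.3 to 345, 269 and 336.

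Of 14 STAT pathway genes 10 rose, 1 fell and 3 were not past the threshold (13 and 1 after rescaling). Stat3 had 31137, 28142 and 27106 in unconditioned medium and 94259.9, 75277 and 89166 in adipocyte medium, with no overlap. Stat5a rose by 1.58, as did the follicular helper factor Bcl6, by 1.94.

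Most listed genes of the T cell receptor complex and its signalling went the other way. Cd3d, Trac, Cd4 and Lck were not in the table. Of 53 genes of the T cell receptor complex and its proximal signalling 8 were listed, of which 7 fell and 1 rose, with a median of -1.36 (6 and 1 after rescaling). Cd3g (ENSMUSG00000002033), a signalling chain of the receptor, had 24131, 27408 and 27669 in unconditioned medium and 8055, 8037 and 9381 in adipocyte medium, a log2 fold change of -1.64 with an SE of 0.081 and a limma adjusted p of 5e-08. Cd3e fell by 1.19. The coreceptor chains Cd8a and Cd8b1 had log2 fold changes of -2.14 and -1.54, and Cd8a had 8703, 9579 and 10320.0 in unconditioned medium and 2292, 2017 and 2191 in adipocyte medium. In bulk RNA, fewer cells of a type and less RNA per cell cannot be told apart. The member that rose was Bcl10, an adaptor between the receptor and NF-kB, by 1.12.

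All 12 heat shock and chaperone genes in the table rose, from a list of 41, with a median of 1.18. The inducible HSP70 gene Hspa1b had 1166, 950.0 and 1183 in unconditioned medium and 15153, 8833 and 20742 in adipocyte medium, a log2 fold change of 3.68 with an SE of 0.24 and a limma adjusted p of 1.38e-07. Its near-identical copy Hspa1a rose by 3.71, and reads of this pair cannot be assigned to one with certainty. The endoplasmic reticulum chaperone Hspa5 rose by 1.27 and the abundant HSP90 gene Hsp90ab1 by 1.18.

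Of 16 genes of the ATF4 axis and amino acid synthesis 11 rose and 5 fell (11 and 2 after rescaling). Atf4 went from 7017, 7061 and 7037 to 29618, 24062 and 30853. Its target Slc3a2, the heavy chain of the CD98 amino acid transporter, had 12798, 12636 and 12833 in unconditioned medium and 82103, 62200.5 and 84083 in adipocyte medium, a log2 fold change of 2.56 with an SE of 0.12 and a limma adjusted p of 3.36e-08. The stress factor Ddit3 rose by 1.11 and Ppp1r15a, which restores translation after stress, by 1.61. Enzymes of amino acid synthesis were among those that fell. Psph, the last step of serine synthesis, went from 1437, 1594 and 1544 to 585, 678 and 459, and Aldh18a1, the first step of proline synthesis, fell by 1.26 on the log2 scale. Of 7 glycolysis and hypoxia genes 6 rose and 1 was not past the threshold (7 rose after rescaling). The angiogenic factor Vegfa went from 247, 202 and 188 to 1273, 934 and 1037, the glucose transporter Slc2a3 rose by 1.53 and hexokinase Hk2 by 1.12. All 6 oxidative phosphorylation genes in the table, from a list of 81, fell, as did 63.4% of all tested genes. Their median of -0.93 was near the -1.03 of all tested genes. After rescaling 1 of them was lower and the median was -0.0035.

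Lipid genes split. Of 28 genes of lipid droplets and fatty acid oxidation 7 rose (25%) and 21 fell (75%), against 33.6% and 63.4% of all tested genes. Their median was -1.14, against -1.03 over all tested genes. After rescaling 7 were higher and 11 lower. The 7 that rose include lipid storage genes. Plin2 (ENSMUSG00000028494), which coats lipid droplets, had 779.9, 745 and 749.9 in unconditioned medium, 4418, 3233 and 4179 in adipocyte medium and 935, 744 and 774 in stromal medium. The log2 fold change against unconditioned medium was 2.36 with an SE of 0.10 and a limma adjusted p of 3.16e-08, and the stromal values lay near the unconditioned ones. Hilpda, which inhibits the droplet lipase, rose by 2.27, and Dgat1, which makes triglyceride, by 1.71. Cpt1a, the gate of fatty acids into mitochondria, went from 3377, 3176 and 3362 to 6899, 7810.2 and 6319. Among those that fell, the mitochondrial carrier Ucp2 had 26317, 28895 and 27314 in unconditioned medium and 5248, 5081 and 6647 in adipocyte medium (log2 fold change -2.29 with an SE of 0.096 and a limma adjusted p of 2.5e-08). Acaa1a, a peroxisomal thiolase, fell by 1.41, and Pdk1, which holds pyruvate out of the mitochondrial cycle, fell by 1.64 on the log2 scale.

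All 9 genes of cholesterol synthesis and uptake in the table fell, as did 63.4% of all tested genes. Their median was -1.16, against -1.03 over all tested genes, and 4 of them were lower after rescaling. Squalene epoxidase, Sqle, a late step of the synthesis, had 2668, 2243 and 2730.2 in unconditioned medium, 824, 692 and 753 in adipocyte medium and 1133, 916 and 999.8 in stromal medium. On the authors' scale the adipocyte values were the lowest in every mouse. The log2 fold change against unconditioned medium was -1.75 with an SE of 0.091 and a limma adjusted p of 5.73e-08. The order against stromal medium depends on the scale. Of the 9 genes 0 were higher and 7 lower than in stromal medium, but 4 were higher and 2 lower after rescaling. Hmgcs1, which makes the substrate of the pathway's rate-limiting enzyme, fell by 1.07, though Hmgcs1 was not past the threshold after rescaling.

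Genes of sterol export and fatty acid synthesis fell too, 9 of 10, with a median of -1.85 (7 after rescaling). The desaturase gene Scd2 (ENSMUSG00000025203) had 3589, 2995 and 2857 in unconditioned medium, 401, 242 and 170.0 in adipocyte medium and 13548, 11416 and 13661 in stromal medium. Adipocyte values were below, and stromal values above, all unconditioned values. The cholesterol exporter Abca1 had 3785, 2763 and 2687 in unconditioned medium, 867, 724 and 814 in adipocyte medium and 5331, 4492 and 6249 in stromal medium. Abcg1, another sterol exporter, went from 4896, 4875 and 4570.5 in unconditioned to 1604, 1829.7 and 1519 in adipocyte medium and stood at 9721, 9834 and 10806 in stromal medium. Lipoprotein lipase, Lpl, had 28.6, 36.5 and 105 in unconditioned medium and 0, 0.9 and 12.7 in adipocyte medium, which is 14 reads in all. The member that rose was the elongase Elovl6, by 1.42.

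The adipocyte samples were also set against the stromal medium samples, in a contrast that shares the adipocyte samples with the one above. There 976 genes were higher in adipocyte medium (34%) and 1645 lower (57.2%). Among cytokines 15 of 17 were higher than in stromal medium, among immediate early factors 24 of 25 and among heat shock genes 11 of 12. Il4 was higher by 4.00 on the log2 scale, Csf2 by 3.37, Nr4a1 by 2.22 and Plin2 by 2.26. Il22 had 41.7, 33.6 and 93.4 in stromal medium, which overlaps the adipocyte values, and its difference of 0.58 was not past the threshold (limma adjusted p = 0.27). Cd274 had 9570.3, 5962 and 7216 in stromal medium, also overlapping the adipocyte values, and the difference was 0.14 (limma adjusted p = 0.393). Rescaling adds a median of 0.57 to differences from stromal medium, so the calls and overlaps of Il22 and Cd274 may change with the scale.

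Genes of the interferon gamma response stood lower in adipocyte than in stromal medium. Of 24 such genes, which include the guanylate binding proteins, 14 rose against unconditioned medium, 1 fell and 9 were not past the threshold (23 and 1 after rescaling). Against stromal medium 1 was higher and 21 lower (3 and 16 after rescaling). Of these 24 genes, 12 are in the authors' stromal list only, so this direction is not independent of how the table was chosen. Gbp2, a GTPase that attacks intracellular pathogens, had 6924, 5869 and 5057 in unconditioned medium, 11136, 13494 and 4343 in adipocyte medium and 100207, 39308 and 56331 in stromal medium. The difference from unconditioned medium was 0.56 with an SE of 0.30 and a limma adjusted p of 0.0974, and in mouse 3 the adipocyte value was below the unconditioned one. It was past the threshold after rescaling, at 1.48, and without the adipocyte sample of mouse 3, at 0.97 (limma adjusted p = 0.00285). Gbp5 had 1389.8, 1251 and 1152 in unconditioned medium, 2099.8, 2515 and 726 in adipocyte medium and 19409, 7235 and 12265 in stromal medium, with a difference from unconditioned medium of 0.31 with an SE of 0.35 and a limma adjusted p of 0.401, and 1.24 after rescaling. Without the adipocyte sample of mouse 2 that of Gbp5 was -0.21, and without that of mouse 3 it was 0.84. The factor Irf1 rose by 1.47, and had 54176, 52652 and 37505 in adipocyte and 44975, 37867 and 41539.5 in stromal medium, a difference of 0.20 that was not past the threshold (limma adjusted p = 0.122). Rescaling adds a median of 0.57 to such differences, so the call of Irf1 may also change with the scale. The protease inhibitor gene Serpina3f went from 90, 99.1 and 68.3 to 1238, 1140.3 and 751 in adipocyte medium, above its stromal values of 609, 741 and 510.1.

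Of 17 type I interferon response genes 6 rose (35.3%), 10 fell (58.8%) and 1 missed the threshold (8 and 6 after rescaling). These shares and the median of -0.96 were near the 33.6%, 63.4% and -1.03 of all tested genes. Against stromal medium 16 were lower (9 after rescaling). Isg15, a ubiquitin-like modifier, rose by 1.17. Ifit1, which binds viral RNA, fell from 647, 495 and 426 to 286, 182 and 162, while it stood at 1734, 949.8 and 1311 in stromal medium. Ifi208 fell by 2.35 on the log2 scale. Among 9 MHC and antigen presentation genes 8 fell and 1 rose (5 and 2 after rescaling), among them the class II chain H2-Ab1, with 2291, 1758 and 1794 in unconditioned medium and 814, 378 and 511 in adipocyte medium, and its regulator Ciita, which went from 123, 126 and 123 to 17.3, 42.3 and 9.77. Class II genes belong mainly to antigen-presenting cells, such as B and dendritic cells, in the mouse.

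**Figure D3:**
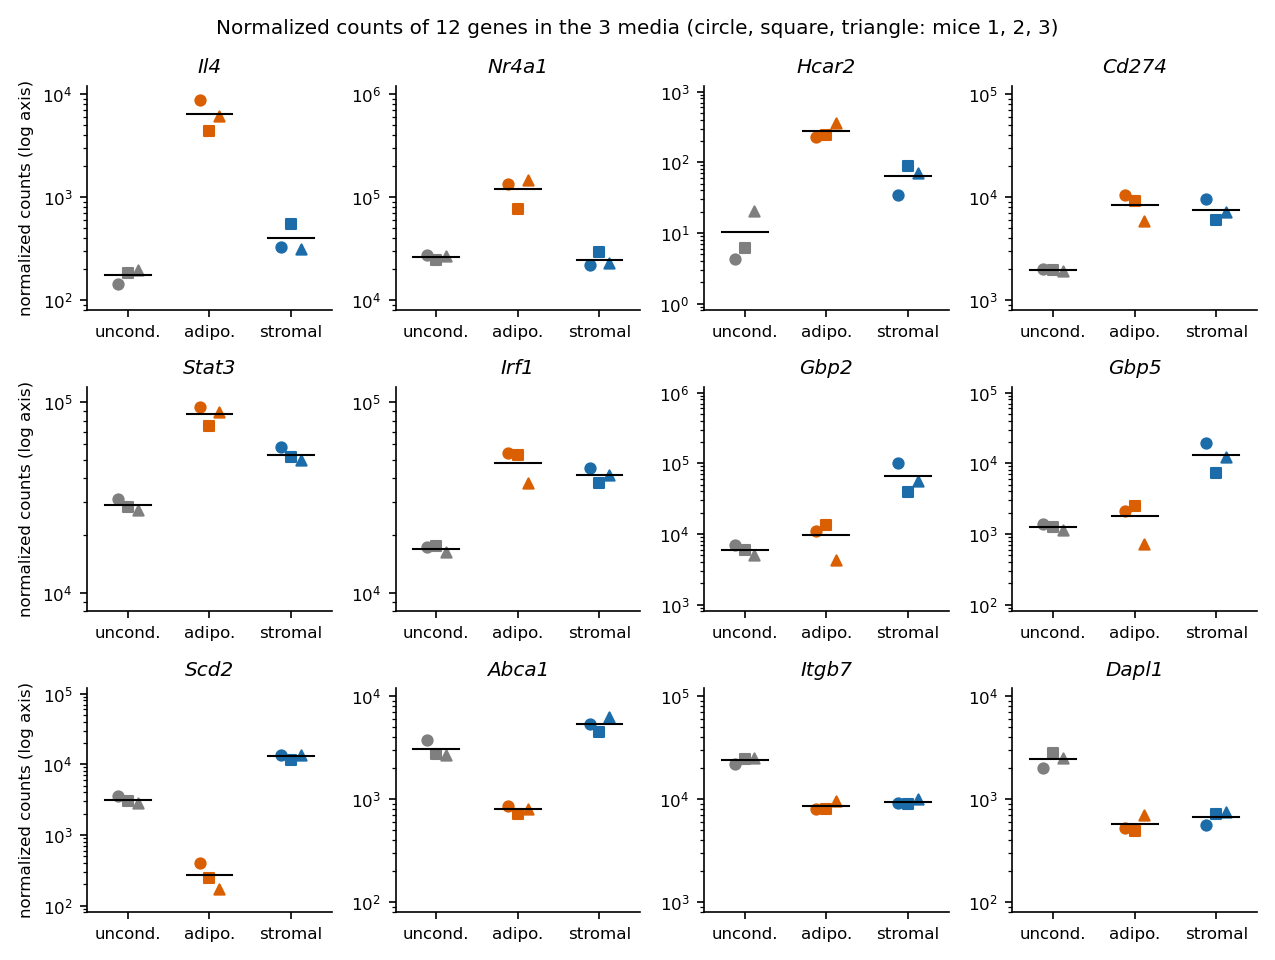
Normalized counts (log axis) of 12 genes in unconditioned, adipocyte and stromal medium, 3 samples each (points), with a line at the mean. Il4, Nr4a1 and Hcar2 are highest in adipocyte medium, Gbp2 and Gbp5 are highest in stromal medium, and Scd2 and Abca1 are lowest in adipocyte and highest in stromal medium.

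Replication-dependent histone genes made up 24 of the 89 genes that rose at least 8-fold. These intronless genes are packed in clusters and are read mainly in S phase, and their messages end in a stem loop instead of a poly(A) tail. Of 41 listed members 40 rose, the other missed the threshold and the median was 3.12, while 41 rose after rescaling. Their summed level was 2202 to 2628 normalized counts in the unconditioned samples and 12751 to 18431 in the adipocyte samples. H4c3 (ENSMUSG00000060678) had 84.3, 82.6 and 83.3 in unconditioned medium, 1683, 1363 and 1852 in adipocyte medium and 99.3, 160.3 and 92.2 in stromal medium. The unconditioned and stromal values lay close together and the adipocyte values far above both, 4.26 with an SE of 0.22 and a limma adjusted p of 5.52e-08 against unconditioned medium. H4c18 went from 71.4, 77.4 and 81.6 to 3082, 2496 and 3715 and H4c17 from 32.9, 23.5 and 47.9 to 1280.0, 1092 and 1643. H4c8 rose by 4.03 and the linker histone H1f4 by 1.28. Copies of histone H4 share most of their coding sequence, so single copies are uncertain where the counting split reads between them. H2bc21 was the member that did not pass the threshold, with 304, 381 and 417 in unconditioned and 302, 274 and 339 in adipocyte medium, a difference of -0.26 with an SE of 0.24 and a limma adjusted p of 0.301, which is 0.66 after rescaling. SMART-seq v4 primes cDNA at poly(A) tails, so a histone value also depends on how many of its messages carry a tail. That dependence was not tested.

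Other genes of dividing cells did not follow the histones. Of 34 listed cell cycle genes 7 rose (20.6%) and 27 fell (79.4%), against 33.6% and 63.4% of all tested genes. Their median was -1.30, against -1.03 over all tested genes. After rescaling 7 were higher and 16 lower. Ccna2, the cyclin of S and G2 phase, had 958, 1098 and 915 in unconditioned medium and 272, 265 and 165 in adipocyte medium (log2 fold change -2.11 with an SE of 0.15 and a limma adjusted p of 2.3e-07). The mitotic genes Ccnb1 and Birc5 fell too, with log2 fold changes of -1.98 and -1.95, and the proliferation marker Mki67 fell by 1.10 on the log2 scale but was not past the threshold after rescaling. Among the 7 that rose, Cdkn1a, the inhibitor p21, went from 723, 688 and 778 to 3347, 2615 and 3005, and the G1 cyclin Ccne2 from 279.9, 303 and 257 to 829.8, 718 and 742. The kinase Plk2, a p53 target, rose by 1.69. Of 20 p53 targets and BCL2 family genes 12 rose and 5 fell (15 and 4 after rescaling).

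All 19 DNA repair genes in the table fell, from a list of 88, as did 63.4% of all tested genes. Their median was -1.18, against -1.03 over all tested genes. After rescaling 8 were lower and 2 higher. Ogg1, which removes oxidized guanine, went from 564, 591 and 587 to 165, 164 and 147. Genes with a Zfp symbol, mostly zinc finger proteins with DNA-binding fingers, had 62 of 75 lower (82.7%) and 13 higher (17.3%). Over all tested genes 63.4% were lower and 33.6% higher. The median of the Zfp genes was -1.23 (32 lower and 13 higher after rescaling), against -1.03 over all tested genes. Zfp41 went from 654, 629 and 488 to 77.7, 101 and 62.5 and Zfp273 fell by 2.63, while Zfp651 went from 8.57, 14.8 and 10.6 to 69, 133 and 78.2. Of 18 chromatin regulators 11 rose and 7 fell (11 and 3 after rescaling). The remodeller Chd2 rose by 1.88 and the demethylase Kdm6b by 1.52, and the DNA demethylase Tet1 went from 264, 266 and 336 to 94.9, 74.7 and 35.2.

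**Figure D4:**
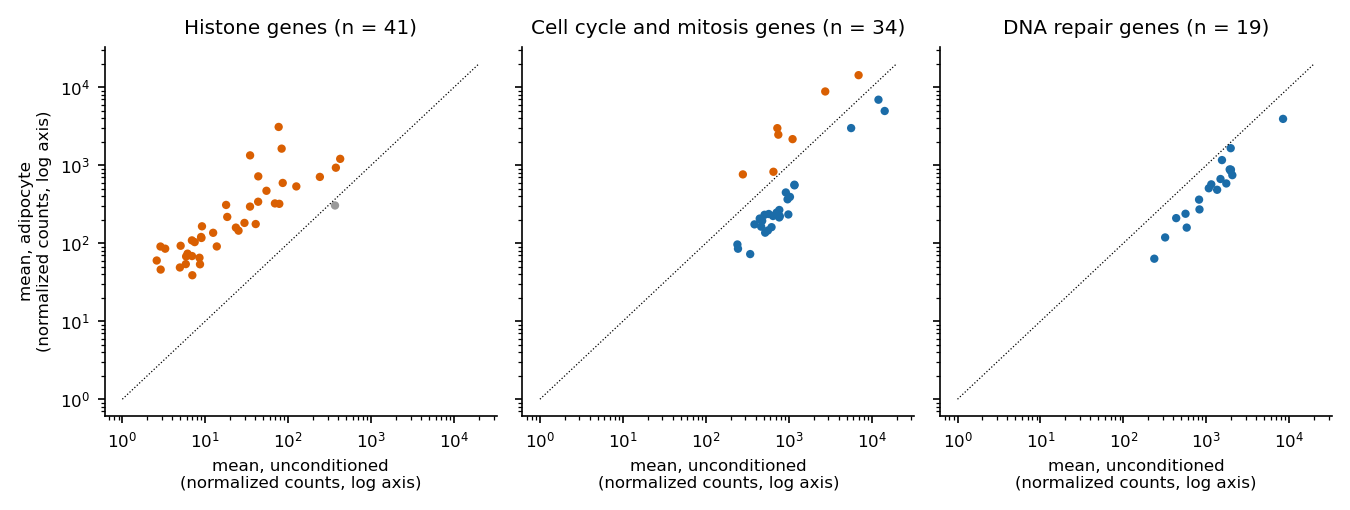
Mean normalized counts in adipocyte medium against the mean in unconditioned medium (both log axes) for 41 histone, 34 cell cycle and 19 DNA repair genes, with a dotted line of equality. The histone genes other than H2bc21 lie above the line, and every DNA repair gene lies below it.

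Of 27 lysosomal genes 21 fell (77.8%) and 6 rose (22.2%), against 63.4% and 33.6% of all tested genes (12 and 7 after rescaling). Their median of -1.04 was near the -1.03 of all tested genes. The sulfatase gene Sgsh (ENSMUSG00000005043), which degrades heparan sulfate, had 1337, 1303 and 1311 in unconditioned medium and 112, 118 and 87 in adipocyte medium, a log2 fold change of -3.64 with an SE of 0.14 and a limma adjusted p of 2.23e-08. Other enzymes of the same breakdown route fell with it, with log2 fold changes of -2.85 for Naglu, -2.12 for Gusb and -1.58 for Ids. The stromal samples had 808, 776 and 832 of Sgsh, between the other media. Among those that rose were the protease Ctsl by 1.5 and the galactosidase Gla by 0.95. Among 53 solute carriers 22 rose (41.5%) and 31 fell (58.5%), also near those shares, with a median of -1.17 (22 and 26 after rescaling). The mitochondrial dicarboxylate carrier Slc25a10 went from 771, 865 and 782 to 108, 161 and 123 and the 2-oxoglutarate carrier Slc25a11 fell by 2.01 on the log2 scale. Ppp1r16a, a regulatory subunit of protein phosphatase 1, fell by 2.03, while 8 of the 10 phosphatase subunits in the table rose and 2 fell (8 and 2 after rescaling).

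Actin regulators moved as the table as a whole did. Of 19 such genes 6 rose (31.6%), 12 fell (63.2%) and 1 missed the threshold (7 and 7 after rescaling), against 33.6% and 63.4% of all tested genes, and the median was -1.03 in both. Pak1, a kinase that remodels actin, rose by 1.52, and the motor Myo1f fell by 1.89 and the actin-binding Lsp1 fell by 1.36 on the log2 scale. Arhgdib, an abundant cytoskeletal regulator of leukocytes, went from 45823, 52951 and 52015 to 20002, 21281 and 19665. All 7 genes of microtubules and motors fell, with a median of -0.93, near that of all tested genes. After rescaling 3 of them were lower and 1 higher.

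Integrin and adhesion genes were also near that background, with 6 of 20 higher (30%), 12 lower (60%) and a median of -1.02 (8 and 8 after rescaling). Itga4, the alpha chain of VLA-4, had 12909, 12224 and 11664 in unconditioned medium and 3119, 3671 and 2834 in adipocyte medium (log2 fold change -1.94 with an SE of 0.13 and a limma adjusted p of 1.63e-07). Itgb7, its partner in gut homing, fell by 1.48. Of 22 trafficking and G protein-coupled receptor genes 11 rose and 10 fell (13 and 7 after rescaling). Hcar2 (ENSMUSG00000045502), the receptor for the ketone body beta-hydroxybutyrate and for niacin, had 4.28, 6.08 and 20.4 in unconditioned medium, 230.1, 242 and 357 in adipocyte medium and 34.2, 87.7 and 69.5 in stromal medium, a log2 fold change of 4.87 with an SE of 0.37 and a limma adjusted p of 3.48e-07. The chemokine receptors Cxcr4 and Ccr8 rose by 1.37 and 2.03.

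Naive and quiescence genes had no common direction, with 9 of 19 higher, 9 lower and 1 not past the threshold (10 and 1 after rescaling). Klf2, the factor that keeps naive T cells quiescent and circulating, had 52001, 54727 and 59129 in unconditioned medium and 52412, 45192 and 63858 in adipocyte medium. The groups overlap, with a difference of -0.051 with an SE of 0.095 and a limma adjusted p of 0.606 that becomes 0.87 and positive after rescaling. In stromal medium Klf2 was lower, with 27588, 25556 and 30596. Dapl1, a gene of naive T cells, went from 2011, 2833 and 2525 to 529, 488 and 710.3, and Igfbp4, another, from 1194, 1297 and 1456 to 4691, 3901 and 5705. Of 12 cytotoxic granule and killer receptor genes 7 rose and 4 fell (7 and 0 after rescaling). Granzyme B, Gzmb, had 741, 585 and 545 in unconditioned medium and 9639, 7457 and 8954 in adipocyte medium, a log2 fold change of 3.80 with an SE of 0.15 and a limma adjusted p of 2.23e-08. The secreted protease gene Mmp10 went from 136, 105 and 63.8 to 2327, 1579 and 1424.

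Markers of other blood cells were present after the negative selection, and their levels differed between media. Of 6 B cell markers 4 were in the table, and all 4 fell (3 after rescaling), with summed levels of 1906 to 2428 in unconditioned and 459 to 509 in adipocyte medium. Cd79b, a chain of the B cell receptor, went from 1031, 978 and 1005 to 187, 226 and 134. Of 7 monocyte and macrophage markers 5 were in the table, of which 4 fell and 1 was not past the threshold (3 lower and 1 higher after rescaling), with summed levels of 3234 to 6712 and 475 to 821. Csf1r went from 697, 850.1 and 1213 to 37.4, 86.4 and 66.4, and Lyz2 from 2024, 3280.3 and 4639 to 101, 214 and 316, with the highest values of Lyz2 in mouse 3 in both media. Cd14 had 87.1, 115 and 189.7 in unconditioned medium and 118, 118 and 277 in adipocyte medium, a difference of 0.34 with an SE of 0.17 and a limma adjusted p of 0.0757, which is 1.26 and past the threshold after rescaling and 0.49 and past it without the unconditioned sample of mouse 2. Of 5 neutrophil markers 2 were in the table and both fell (1 after rescaling), with sums of 289 to 724 and 80.5 to 230. The granule gene Mpo, of myeloid precursors, went from 1201, 1845 and 1448 to 105, 499 and 189.5. Of 5 dendritic cell markers 3 were in the table, of which 1 rose and 2 fell (1 and 2 after rescaling), with sums of 410 to 481 and 373 to 493. Flt3 went from 234, 221 and 262 to 25.9, 54.9 and 27.4 and Xcr1 from 163, 108 and 127 to 460.2, 381 and 318. The erythroid marker Car1 fell by 1.70. None of these markers was at 0 in any of the 6 samples. Markers of NK cells, platelets, adipocytes and stromal cells were not in the table, which holds only genes the authors selected. Of 7 T cell markers 3 were in the table, and all 3 fell (3 after rescaling), with sums of 66895 to 74825 and 25231 to 28024.

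Genes known from such cells stand on other lists too. Of 24 Toll-like and innate receptor genes 18 fell and 3 rose, with a median of -1.44 (12 and 6 after rescaling). The lectin receptor gene Clec4a3 had 90, 73.9 and 105 in unconditioned medium and 1 read in all in the adipocyte libraries, and the scavenger receptor gene Msr1 went from 50, 39.1 and 89.5 to 0, 0 and 10.7. Tlr13 fell by 2.21 and Fgd2, an exchange factor of myeloid and B cells, fell by 3.18 on the log2 scale. Irak2, a kinase downstream of Toll-like receptors that T cells also have, rose by 1.31. The part of the other cells in the falls of the innate receptor, antigen presentation, lysosomal and adhesion genes was not tested.

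Within this table the response of single mice was close. The authors chose its genes on the same samples, so agreement between mice and separation of the media partly follow from that choice. The median log2 difference over all tested genes was -1.0 in mouse 1, -0.96 in mouse 2 and -1.04 in mouse 3, and 2807 of 2874 genes (97.7%) had the same sign in every mouse. The groups did not overlap for 964 genes above (33.5%) and 1819 below (63.3%). Among the 967 genes that rose, the difference was smallest in mouse 2 for 499, in mouse 3 for 280 and in mouse 1 for 188. In a principal component analysis of the 6 samples, component 1 carried 91.5% of the variance and separated the media, and component 2, at 3.2%, placed the adipocyte samples of mice 2 and 3 at opposite ends. Outside the lowest 25% of genes by mean level, the 6 genes whose log2 difference ranged most between mice were Zc3hav1l (2.46), Kif2c (1.87), Cxcl2 (1.77), Gbp5 (1.67), Mpo (1.62) and Il21 (1.59). Genes of lower level, such as Cxcl3 at 3.32, ranged wider. The mitotic motor gene Kif2c had 554, 536 and 520.3 in unconditioned medium and 171, 256 and 67.4 in adipocyte medium, lowest in mouse 3. Zc3hav1l went from 80, 38.2 and 86.9 to 893, 1119.6 and 455, and its lowest adipocyte value lay far above its highest unconditioned value.

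Sequence features of the transcripts were set side by side for genes that rose and genes that fell, as a description with no test. GENCODE M21 gave a transcript for 99.5% of the tested genes. The 3'UTRs of genes that rose held a median of 2.03 ATTTA pentamers per 1000 bases, against 0.891 for genes that fell and 1.22 over all tested genes. That median was not higher for the largest rises, at 1.48 for genes that rose at least 8-fold and 2.27 for those that rose under 2-fold. The 17 cytokine genes had a median of 9.51, of which the Csf2 and Il2 stretches above are examples, and the 25 immediate early factors had 2.26. The 33 histone genes with a 3'UTR long enough to count had a median of 0. All 41 had a median of 1 exon and 618 bases per transcript. Since AU-rich 3'UTRs go with transcripts poor in GC, whose median GC content was 48.5% in genes that rose and 51.8% in genes that fell, pentamers were compared within terciles of GC content. Their medians in genes that rose and fell were 2.74 and 2.00 in the lowest tercile, 1.56 and 0.933 in the middle and 0.702 and 0 in the highest. Across genes, which are not independent replicates, Spearman's correlation was 0.20 between the log2 fold change and the pentamers, -0.13 between it and GC content, and -0.46 between GC content and the pentamers. The 89 genes that rose at least 8-fold had a median of 4 exons and 1547 bases, against 8 exons over all tested genes. Of these, 24 were histone genes and 11 were cytokine genes. The cytokine list had a median of 4 exons and 1208 bases.

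**Figure D5:**
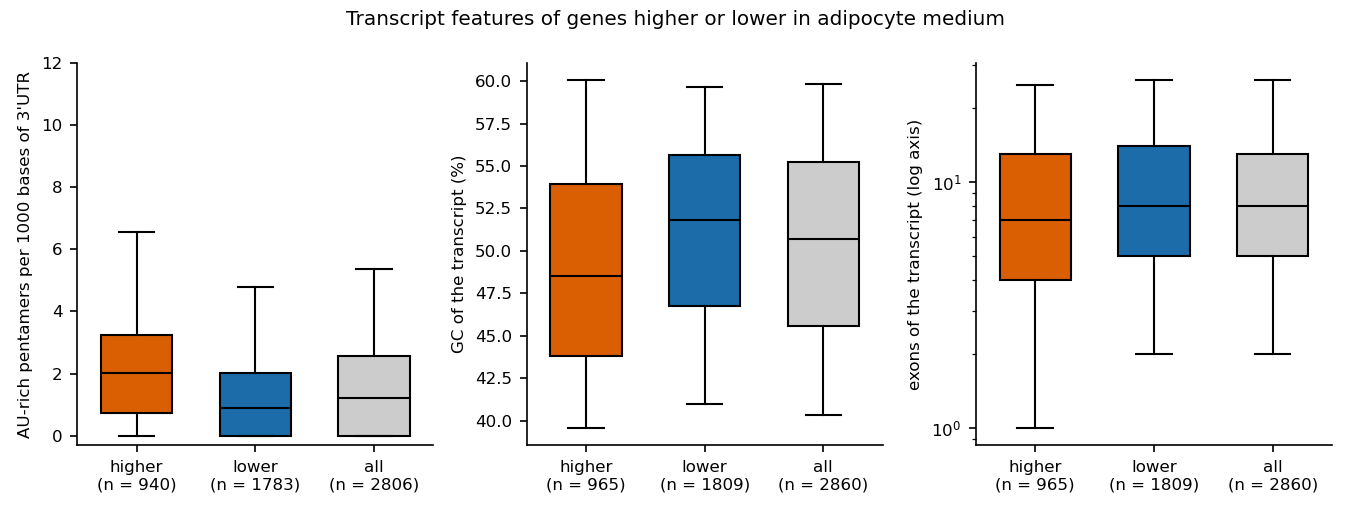
ATTTA pentamers per 1000 bases of 3'UTR, percent GC of the transcript and number of exons for genes that rose, genes that fell and all tested genes; boxes show the median and quartiles and whiskers run from the 5th to the 95th percentile. The pentamer box of genes that rose lies higher, with a median of 2.03 against 0.891 for genes that fell, and the boxes overlap in all 3 panels.

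Promoter letters were counted on both strands in the 300 bases from 250 before to 50 after the RefSeq start, over 27025 genes of the whole annotation table and the 2318 tested genes found in it. The cAMP response element TGACGTCA was in 2.03% of all genes, 3.32% of tested genes, 5% of genes that rose and 2.52% of genes that fell. The AP-1 motif TGANTCA was in 8.97% of all genes, 8.97% of genes that rose and 5.57% of genes that fell, and in 13.7% of the genes that rose at least 4-fold. The E-box CACGTG was in 8.09% of all genes, 13.1% of genes that rose and 9.25% of genes that fell. The kB motif, the same letters as above, was in 0.466% of all genes, 0.641% of genes that rose and 0.748% of genes that fell, and in 2 of the 8 chemokine genes found, Cxcl2 and Cxcl3. The NFAT core GGAAAA was in 26.1% of all genes and 23.5% of genes that rose. Among genes that rose at least 4-fold, the cAMP response element was in 4.35% and the E-box in 8.07%, both lower than among all that rose. The kB motif was in 1.86% of them and the NFAT core in 23.6%. Of the 12 MAP kinase phosphatase and feedback genes found, 3 held the cAMP response element, as did 3 of 35 histone genes. Of these motifs, the kB motif holds the NFAT core on its other strand where its free base is T, and none of the others contains another. A match says nothing of binding, and the shares are given as descriptions with no test.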

How the data were processed

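RNA-seq was made from T cells of 3 mice in 3 media, 9 samples in all, and the 6 samples in adipocyte and unconditioned medium are compared here. Per the labels' protocols, cDNA was made with SMART-seq v4 and libraries with Nextera XT, which keeps no strand. Reads of overlapping antisense genes and of near-identical copies are therefore uncertain. Tools in the submitters' processing notes are FastQC, Trimmomatic, featureCounts and DESeq2, with no versions, and the mouse build there is GRCm39, beside GRCh38 and hg38 with no stated role. An aligner was not given in the sources used here.

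In the deposited sample table each value is a signal, the read count of a gene that the authors divided by 1 size factor per library. All values (100%) were whole multiples of the library's step within 0.001 reads, so whole reads were recovered. The authors' deposited comparison tables give, per the file headers, a mean signal, log2 fold changes, a Wald score and p-values. They were used here to tell which list each gene came from.

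The main test was limma-trend (limma 3.58.1, R 4.3.3) on log2(value + 1), two-sided, with Benjamini-Hochberg adjustment over all tested genes and a threshold of 0.05. Genes had to reach a mean of 1 over the 6 samples, and the fit held all 9 samples with the mouse as a block. This scale understates changes of low genes. The labels give the same mouse numbers in every medium, so same-numbered samples were paired as the same animal. Deviations of the unconditioned and adipocyte samples of a mouse from their group means correlated at 0.18, 0.04 and 0.11. For unconditioned and adipocyte samples of different mice these correlations ran from -0.14 to 0.06. Alternatives were edgeR (4.0.16) quasi-likelihood tests on recovered reads, a median of ratios scale, other filters and pseudocounts, other designs and leaving out samples. The planned count of genes past the threshold in both contrasts is not given, because the contrasts share the adipocyte samples. An exact permutation test of 3 samples against 3 cannot go below 0.1, so none was made.

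The genes and lists were chosen with earlier results of these data known. Named genes are the 12 largest rises and 12 largest falls with 1 sign in all 3 mice and a mean outside the lowest 25%, the 6 genes with the widest range between mice, up to 8 members of each list with the smallest adjusted p and the 1 with the largest, and Klf2, Cd3e, Nr4a1, Il4 and Plin2. A further 30 genes lie outside that rule and were chosen after their values were seen: Ccnb1, Ccne2, Ccr8, Cpt1a, Csf2, Ddit3, Dgat1, Dusp5, Dusp8, Egr2, Fgd2, Fos, Gbp2, Gla, H1f4, Il10, Il17a, Il22, Il3, Maff, Mki67, Msr1, Myc, Pde4d, Psph, Slc25a10, Tet1, Tlr13, Tnf and Zfp651. Values of some genes and 1 gene list are not reported here.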

Additional observations from a re-analysis of the deposited data

How the results depend on the processing

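The counts of 967 genes higher and 1821 lower in adipocyte medium were 969 and 1818 without pairing the samples by mouse (no replicate block), which changed the call of none of the 167 named genes. They were 971 and 1823 in the 6 samples alone, 965 and 1821 with edgeR on recovered reads, 966 and 1822 at a pseudocount of 5, 967 and 1820 with no filter, 950 and 1794 at a mean of at least 10, 935 and 1738 for a change beyond 1.5-fold, and from 953 to 977 and from 1811 to 1823 without 1 sample or 1 mouse. A median of ratios scale, which adds a median of 0.93 to the log2 fold changes, gave 1084 and 1048, with 723 falls no longer past the threshold and 50 turned into rises. Against stromal medium it adds a median of 0.57 and gave 1096 lower in place of 1645.

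On that scale the list medians were 4.51 for cytokines, 2.74 for immediate early factors, 2.46 for MAP kinase phosphatases, 2.01 for the interferon gamma response, 2.11 for heat shock genes and 4.04 for histones. They were -0.22 for lipid droplets and oxidation, -0.24 for cholesterol, -0.38 for the cell cycle, -0.10 for actin, -0.12 for lysosomes, -0.25 for DNA repair, -0.52 for innate receptors, -0.31 for Zfp genes and -0.25 for solute carriers. The median over all tested genes on that scale was -0.11. A pseudocount of 5 gave 2.75 for histones. Leaving out a mouse moved the medians of cholesterol genes from -1.29 to -1.08, of actin regulators from -0.998 to -0.97 (-0.98 without mouse 2), of lysosomal genes from -1.21 to -0.99, of DNA repair from -1.28 to -1.17 (-1.26 without mouse 2) and of solute carriers from -1.21 to -1.09. The cause was not tested.

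On the median of ratios scale the sign turned for H2bc21 (0.66), Klf2 (0.87) and Il16, whose fall of 0.91 became 0.013, and Hmgcs1 and Mki67 were no longer past the threshold. Without 1 sample or mouse Gbp5 ranged from -0.21 to 0.84 (-0.035 without mouse 2) and Klf2 from -0.13 to 0.061 (0.033 without the adipocyte sample of mouse 2). Gbp2 was past the threshold in the 6 samples alone (limma adjusted p = 0.0253). Genes with few reads, such as Csf2, Il3, Il13 and Lpl, are limited by depth, and their fold changes depend on the pseudocount.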
